A study of Mus musculus with 6 samples.

Results

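The nuclear genes for the subunits of the mitochondrial respiratory chain and ATP synthase were examined in the mouse pancreas with and without Cftr. Members were all probe sets whose single current gene symbol begins with Ndufa, Ndufb, Ndufc, Ndufs, Ndufv, Uqcr, Cox4 to Cox8 or Atp5, is one of Sdha to Sdhd, or is Cyc1 or Cycs. The rule found 101 of the 12488 probe sets on the array, for 73 of its 8252 genes with a single symbol, and used no measured value. Of these, 83 probe sets of 67 genes were bright enough on the arrays to be tested, among 7739 tested probe sets in all. The 3 control mice were CFTR+/+ and the others, called CF, were 3 CFTR-/- mice, with 1 mouse per array. All 6 mice were gastrin+/- males of 56 to 58 days on a background of 95% black6 and 5% 129Sv, and all had been given the liquid diet Peptamen from day 10. Total RNA of each pancreas was hybridised to its own Affymetrix MG-U74Av2 array. The values are intensities on a linear scale, and the number of arrays limits their precision. In bulk tissue, fewer cells of a type and less RNA per cell cannot be told apart.

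The respiratory chain sits in the inner mitochondrial membrane. Complex I takes electrons from NADH and complex II from succinate, complex III passes them to cytochrome c, and complex IV hands them to oxygen. Complexes I, III and IV pump protons, and ATP synthase, complex V, uses the resulting gradient to make ATP. In the acinar cell, which makes up most of the pancreas, that ATP pays for the synthesis, packaging and secretion of digestive enzymes. The array measures the nuclear transcripts of these complexes, not their protein or activity.

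Promoters of respiratory chain genes are known for sites of the factors NRF1 and GABP, and 3 of them are shown because they carry these letters and belong to members whose fitted differences were negative (Atp5o), near 0 (Cox6a1) and positive (Sdhd), none of them past the threshold. The windows are from RefSeq, build GRCm38.p6, and run from 250 bases before to 50 after the start, 5′ to 3′ on the gene's strand. Capitals mark the letters of NRF1 (GCGCANGCG), GABP (CCGGAAG) or the estrogen-related receptors (TCAAGGTCA), searched on both strands. The Atp5o window is at chr16:91931581-91931880, the Cox6a1 window at chr5:115348909-115349208 and the Sdhd window at chr9:50603800-50604099, all on the minus strand.
Atp5o: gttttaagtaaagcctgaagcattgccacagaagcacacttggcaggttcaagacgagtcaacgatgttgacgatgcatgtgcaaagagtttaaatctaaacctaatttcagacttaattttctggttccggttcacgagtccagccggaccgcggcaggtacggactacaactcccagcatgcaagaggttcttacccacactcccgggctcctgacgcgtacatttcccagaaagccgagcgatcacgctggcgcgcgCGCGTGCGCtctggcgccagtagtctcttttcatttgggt
Cox6a1: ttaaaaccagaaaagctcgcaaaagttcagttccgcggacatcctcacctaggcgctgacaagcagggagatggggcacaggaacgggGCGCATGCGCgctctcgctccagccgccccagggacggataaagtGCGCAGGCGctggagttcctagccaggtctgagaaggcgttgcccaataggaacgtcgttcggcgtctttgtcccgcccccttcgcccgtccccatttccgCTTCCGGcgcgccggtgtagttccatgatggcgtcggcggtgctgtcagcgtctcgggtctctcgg
Sdhd: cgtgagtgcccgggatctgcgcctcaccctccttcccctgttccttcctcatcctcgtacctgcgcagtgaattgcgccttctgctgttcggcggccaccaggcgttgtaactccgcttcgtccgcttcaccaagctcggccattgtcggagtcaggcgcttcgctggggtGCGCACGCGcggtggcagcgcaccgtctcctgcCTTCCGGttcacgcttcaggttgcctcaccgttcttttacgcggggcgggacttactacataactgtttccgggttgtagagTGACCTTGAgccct
The Atp5o window, of the gene for the stalk protein of ATP synthase, held 1 NRF1 match, which began at position 11 after the start. In the Cox6a1 window, of a complex IV subunit, NRF1 matches began at positions -162, -161 and -117 and a GABP match at -16; the first 2 overlap, being the same stretch read on either strand. The Sdhd window, of a membrane anchor of complex II, held NRF1 at -79, GABP at -46 and the estrogen-related receptor letters at 37.

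Across the members, 59 of the 73 genes had a window of 300 bases in the table. The NRF1 letters were in the windows of 16 of these 59 genes (27.1%), against 7.0% of all genes and 15.0% of all tested genes. GABP letters were also found for 16 (27.1%), against 9.9% of all genes and 19.6% of tested genes. YY1 letters (AAGATGGCG) were found for 5 (8.5%), against 1.6% and 3.4%, and the estrogen-related receptor letters for 1, Sdhd (1.7%), against 0.5% and 0.3%. At least 1 of NRF1, GABP and YY1 was found for 31 of 59 members (52.5%), 33.1% of tested genes and 16.5% of all genes. All genes here include those that do not code for protein. Among protein-coding genes the shares were 9.6% (NRF1), 12.9% (GABP), 2.1% (YY1), 0.4% (estrogen-related receptors) and 21.8% (at least 1 of the first 3). A match is a run of letters, not a measured binding site. The CF-minus-control differences with and without such a match are given as a description, for the 54 tested members that had a window. Tested members without a window are in neither group, and the median of all 67 was -0.057. The median log2 difference was -0.034 over the 28 with at least 1 of the 3 motifs, of which 15 were lower in CF, and 0.0043 over the 26 without, of which 13 were lower. By motif, the medians with and without were -0.0315 and -0.0054 (NRF1), -0.017 and -0.018 (GABP), and -0.011 and -0.018 (YY1).

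The arrays matched their tissue label: acinar markers such as the zymogen gene Ctrb1, at 91687 to 135426, were far above the array medians of 207.8 to 234.4. Of 9 acinar markers on the array, 8 were tested. The other, Rbpjl, was too dim to test, at 30.9 to 304.7. Cftr had 3 probe sets, of which 1 could be tested; it read 318, 223 and 338.5 in controls and 467, 314 and 364 in CF (log2 difference 0.38 ± 0.29 SE, adjusted p = 0.823), so it did not separate the groups, and whether it lies within the disrupted part of the gene was not tested. The arrays differed in the markers of other cells. Summed white fat markers were 53613, 7785 and 23036 in control replicates 1 to 3 and 14521, 6525 and 6582 in CF, and 10 of the 11 tested fat markers were lower in CF. All 7 tested lymphocyte markers, 6 of 7 of the macrophage and granulocyte markers and 12 of 13 of the matrix and stellate cell markers were also lower. Summed acinar markers were 644810 to 886805 in controls and 608527 to 674831 in CF, with 8 of 8 lower (median log2 difference -0.21), while 8 of 10 duct markers were higher (median 0.31). Of tissues rich in mitochondria, brown fat had 1 of 8 markers bright enough to test, Dio2, with the 2 probe sets of Ucp1 at 27.8 to 181.5. Skeletal muscle had 10 of 16, and their sums were 4879.7 to 7723 in controls and 4579.9 to 7002 in CF. The brightest of these was Pvalb, at 932.2 to 2721.5. Muscle markers too dim to test included Acta1, at 22.3 to 41.7, and Myh1, at 6.3 to 49.6. The 3′ to 5′ ratio of Gapdh, a sign of RNA integrity, was 0.798, 1.46 and 0.838 in controls and 0.723, 0.756 and 0.873 in CF. That of Actb was 1.744, 2.159 and 1.935 in controls and 1.745, 2.14 and 1.943 in CF. How far these differences bear on the values below was not tested.

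None of the 83 tested respiratory chain probe sets passed the threshold, an adjusted p under 0.05 in limma over all 7739 probe sets, where 5 (0.0646%) passed. The lowest adjusted p of a member was 0.618. At an unadjusted p under 0.05, 2 members (2.4%) were lower in CF, against 3.11% of all probe sets, and 0 members were higher, against 4.26%. All 3 CF values lay below all 3 control values for 4 member probe sets (4.8%), against 5.62% of all, and above them for 2 (2.4%), against 7.37% of all. Both counts of lower members include Cox6b2. It passed the limit for testing through its control arrays, so a lower CF reading was in part built in. In this fit the members' shares were smaller than those of all probe sets in both directions. With the replicate as a block, given with the pairs of arrays further on, the share of members lower in CF was larger than that of all probe sets (8.4% against 5.67%).

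Taking the brightest tested probe set of each gene, 38 of the 67 member genes were lower in CF and 29 higher. Their median log2 difference was -0.057, with quartiles of -0.22 and 0.11, beside -0.0032 over all 5804 tested genes, of which 2925 were lower. Of the 67, 4 differed by more than 0.5 on the log2 scale in either direction, as did 1157 of the 5804 tested genes. Among genes brighter than 1000, 2 of 45 members and 150 of 1541 tested genes did. The median SE was 0.193 for the members and 0.28 for all tested genes; among genes brighter than 1000 it was 0.185 for the members and 0.194 for all. For 58 of the 67, the 95% interval of the difference lay within a 2-fold change either way, and the interval reached a median of 0.438 to either side on the log2 scale. Smaller shifts could not be resolved with 3 arrays per group. By complex, the medians were -0.082 for complex I (16 of 28 genes lower), -0.059 for complex II (2 of 4), -0.15 for complex III (6 of 8), 0.0043 for complex IV (5 of 10) and -0.045 for complex V (8 of 13).

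**Figure D1:**
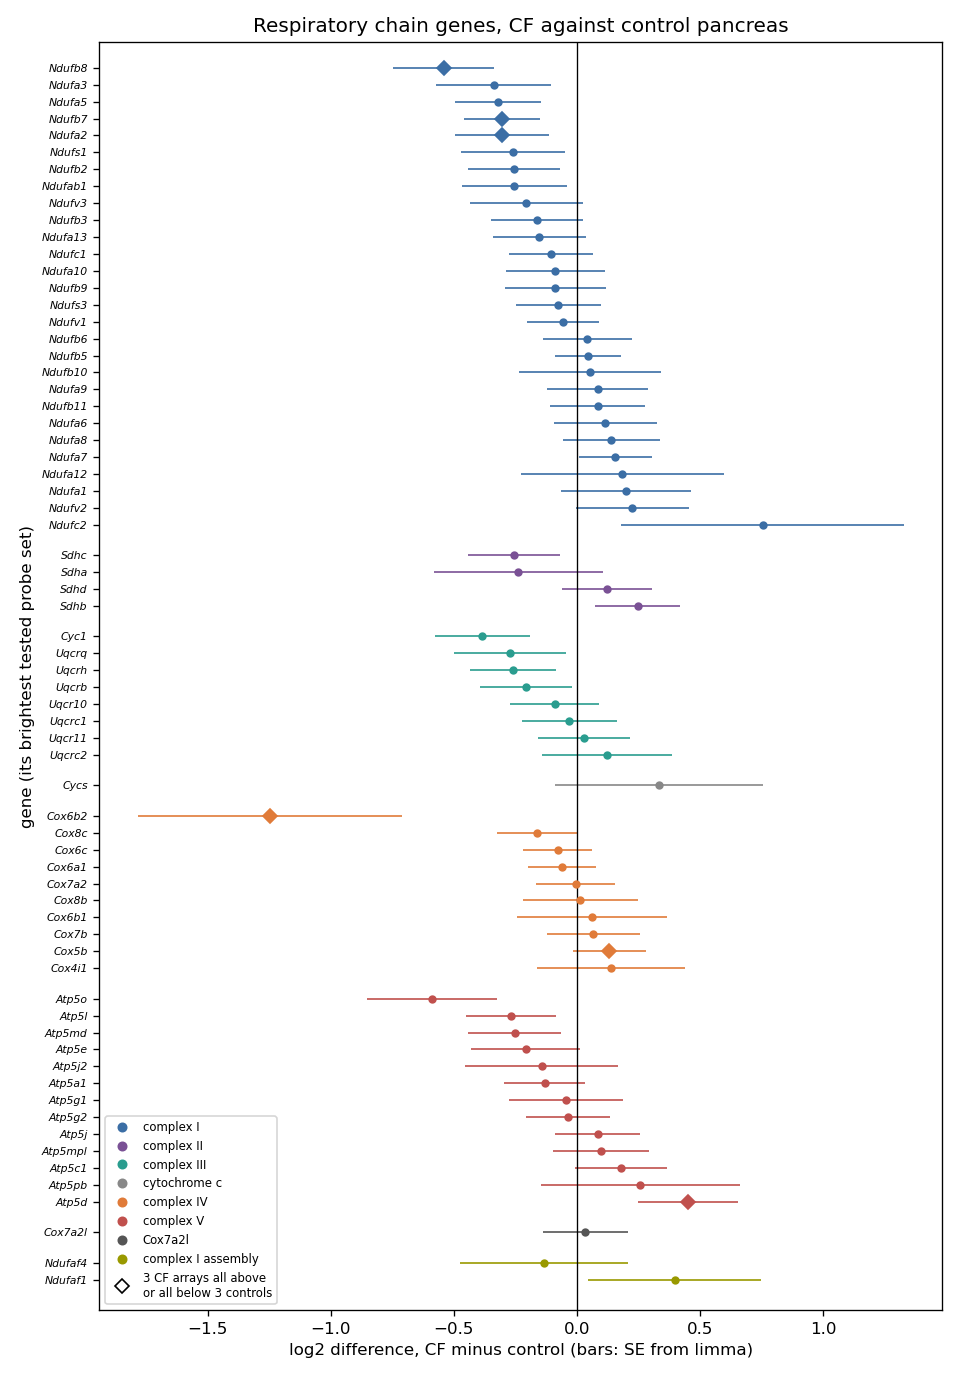
Log2 difference, CF minus control (x axis), of each of the 67 tested respiratory chain genes (y axis; brightest tested probe set), grouped by complex, with the SE from limma as bars (3 arrays per group). Diamonds mark genes whose 3 CF values all lay below or all above the 3 control values; most genes sit within 0.5 of zero, and Cox6b2 lies farthest out at -1.25.

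In complex I, the members whose CF values were apart from and below the controls were 3 accessory subunits of its membrane and matrix arms. Ndufb8, an accessory subunit of the membrane arm, read 1392, 1105 and 1274 in the control mice and 722, 834 and 1055 in CF mice. The CF values were all below the lowest control, and CF replicate 3 came closest to it. The log2 difference was -0.54 ± 0.20 SE (95% interval -1.01 to -0.08, adjusted p = 0.618). Ndufb7, which lies on the intermembrane side of the membrane arm, read 3519, 3150.1 and 4020.1 in controls and 3035, 2682 and 2907 in CF (log2 difference -0.30 ± 0.15, adjusted p = 0.713). Ndufa2, a small subunit of the matrix arm, read 828, 721 and 907 in controls and 688, 618 and 677.5 in CF (-0.30 ± 0.19, adjusted p = 0.784). For both genes the CF values were close together and just below the lowest control, control replicate 2.

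Ndufa5, another matrix arm subunit, overlapped between groups: 1770.5, 1578 and 2043 in controls and 1323, 1374.5 and 1608 in CF (-0.32 ± 0.17, adjusted p = 0.736). Only CF replicate 3 exceeded the lowest control. The differences of the core subunits of the matrix arm, most of which hold the flavin or iron-sulfur clusters that electrons pass through, were of both signs: Ndufs1 differed by -0.26, Ndufs3 by -0.075, Ndufv1, which binds NADH, by -0.057, and Ndufv2 by 0.22, with SEs from 0.147 to 0.229. A second, dimmer probe set of Ndufv2 differed by -0.17 ± 0.30. Ndufv1 was among the most tightly measured, reading 7297, 7220.2 and 7447 in controls and 6548, 6459 and 8245 in CF; the highest and the lowest values were both CF. Ndufb5, with the smallest SE of all members, differed by 0.046 ± 0.14 (95% interval -0.26 to 0.35). The highest difference in the complex, 0.75 ± 0.57 for Ndufc2, rested on control replicate 2 at 58.2, beside 274 and 217 in the other controls and 221 to 283 in CF.

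Complex II, which is also an enzyme of the citrate cycle, was split by subunit. Sdhb, the iron-sulfur subunit, read 2447, 2001.5 and 2402 in controls and 2380.4, 3178 and 2596 in CF (0.25 ± 0.17, adjusted p = 0.807). Sdhc, a membrane anchor, read 1436, 1419 and 1689 in controls and 1284, 1059.8 and 1482 in CF (-0.26 ± 0.19, adjusted p = 0.816). Both genes overlapped between the groups. The flavoprotein gene Sdha differed by -0.24 ± 0.34 at 155 to 284 across the 6 arrays, and the other anchor gene, Sdhd, whose promoter is shown above, by 0.12 ± 0.18 at 1932 to 2806.

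Complex III had the lowest median, with 6 of 8 genes lower, of which Cyc1, Uqcrq, Uqcrh and Uqcrb differed most. Cyc1 encodes cytochrome c1, the haem protein that hands electrons to cytochrome c. Its brighter probe set read 5905, 4975 and 5833 in controls and 4038, 3455 and 5515 in CF (-0.38 ± 0.19, 95% interval -0.82 to 0.05, adjusted p = 0.708). Its second probe set read 3352, 4117 and 3628 in controls and 2497, 3375 and 2853 in CF (-0.35 ± 0.17, adjusted p = 0.700). The groups overlapped in both, through CF replicate 3 in the first and CF replicate 2 in the second. The suffix of the second marks that some probe selection rules were dropped. Uqcrh, the hinge protein that docks cytochrome c, read 3787.5, 3924 and 3670.2 in controls and 2651, 3036 and 3953.5 in CF (-0.26 ± 0.18, adjusted p = 0.795). Uqcrq, a small membrane subunit, read 6412, 6599 and 7588 in controls and 4805, 4616 and 8219 in CF (-0.27 ± 0.23, adjusted p = 0.844). In both, CF replicates 1 and 2 were below every control and CF replicate 3 above every control. Without CF replicate 3 the Cyc1, Uqcrh and Uqcrq differences were -0.57, -0.42 and -0.54, with adjusted p of 0.388, 0.537 and 0.386. Leaving out another CF array made them smaller: without CF replicate 2 the Cyc1 and Uqcrq differences were -0.24 and -0.12, and without CF replicate 1 the Uqcrh and Uqcrq differences were -0.13 and -0.15.

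Uqcrb, known as the ubiquinone-binding subunit, differed by -0.21 ± 0.19, and the core proteins Uqcrc1 and Uqcrc2 by -0.031 ± 0.19 and 0.12 ± 0.26. The small subunits Uqcr10 and Uqcr11 differed by -0.090 ± 0.18 and 0.028 ± 0.19. Cycs, the somatic cytochrome c itself, was close to the limit of testing with control values of 127, 156 and 101 and CF values of 135, 167 and 178 (0.33 ± 0.42, adjusted p = 0.910), with overlapping groups.

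In complex IV, by the brightest probe set of each gene, the differences of all tested genes but Cox6b2 lay between -0.16 (Cox8c) and 0.14 (Cox4i1). Cox5b, the zinc-binding subunit, was the exception in overlap: it read 1665, 1668 and 1792 in controls and 1827, 1825.5 and 1962 in CF. Every CF value exceeded every control value, and by 0.13 on the log2 scale in each of the 3 pairs of arrays with the same replicate number. The difference was small, 0.13 ± 0.15 (95% interval -0.20 to 0.47, adjusted p = 0.892). Cox6a1, shown above for its promoter, read 7467, 7118 and 7822 in controls and 6705, 6868 and 7949 in CF (-0.061 ± 0.14). Cox7a2 differed by -0.0054 ± 0.16 and Cox7b by 0.067 ± 0.19, each with overlapping groups.

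Several complex IV subunits have isoforms restricted to some tissues. The muscle forms Cox6a2 and Cox7a1 were too dim to test, at group means of 73.1 and 58.7 for Cox6a2 and 35.6 and 58.7 for Cox7a1 in controls and CF, where the testing limit was 140.2 on at least 3 arrays. The muscle form Cox8b was tested through 1 of its 2 probe sets, with control values of 523, 526 and 489 and CF values of 405, 557 and 615 (0.014 ± 0.23). The suffix of that probe set marks that some probe selection rules were dropped. The other Cox8b probe set, without a suffix, was too dim to test, at 85.0 to 178.3. The probe set of the widely expressed Cox8a was dim as well, at means of 115 and 119. Cox4i1, the widely expressed form of subunit 4, differed by 0.14 ± 0.30. A probe set annotated to Cox8c, known as a testis form, read 3574 to 5122 across the arrays (-0.16 ± 0.16); the assignment rests on the platform annotation alone. Cox5a was also too dim, with means of 45.9 and 45.2 in its brighter probe set.

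The largest difference of all members was that of Cox6b2, the testis form of subunit 6b. It read 261, 247 and 219 in controls and 122, 181 and 26.7 in CF, so every CF value was lower, with a difference of -1.25 ± 0.54 (95% interval -2.47 to -0.02, adjusted p = 0.671). It passed the limit for testing through its control arrays, since only 1 CF value was above 140.2. CF replicate 3, at 26.7, was below the floor of 47.6 set for all values, and without it the difference was -0.70. The suffix of its probe set marks that some probe selection rules were dropped, and another Cox6b2 probe set, too dim to test, had means of 84.0 in controls and 173 in CF. The widely expressed Cox6b1 differed by 0.061 ± 0.30, in a probe set whose suffix also marks dropped selection rules.

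By the brightest probe set of each gene, ATP synthase members ranged from -0.59 to 0.45, and over all their tested probe sets from -1.04 to 0.61. Atp5o, which encodes the protein that ties the catalytic head to the peripheral stalk, read 2209.9, 1793 and 2509 in controls and 1311.5, 1054 and 2116 in CF. CF replicates 1 and 2 were below all controls and CF replicate 3 among them. The difference was -0.59 ± 0.27 (95% interval -1.19 to 0.01, adjusted p = 0.674); it was -0.87 without CF replicate 3 (adjusted p = 0.293, the lowest of any member in any setting) and -0.37 without CF replicate 2. Atp5l, subunit g of the membrane sector, read 5382, 3772.5 and 4495 in controls and 3815, 3203 and 4286 in CF (-0.27 ± 0.18, adjusted p = 0.802), with overlap. Atp5a1, subunit alpha of the head, and Atp5c1, the rotating shaft, differed by -0.13 ± 0.16 and 0.18 ± 0.19, and Atp5e, at the foot of the shaft, by -0.21 ± 0.22. Of the ring subunit c genes, Atp5g1 differed by -0.045 ± 0.23 and Atp5g2 by -0.037 ± 0.17. Atp5md, a small subunit of the membrane sector, read 1729.5, 1932 and 1814 in controls and 1245, 1538 and 1869 in CF (-0.25 ± 0.19).

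**Figure D2:**
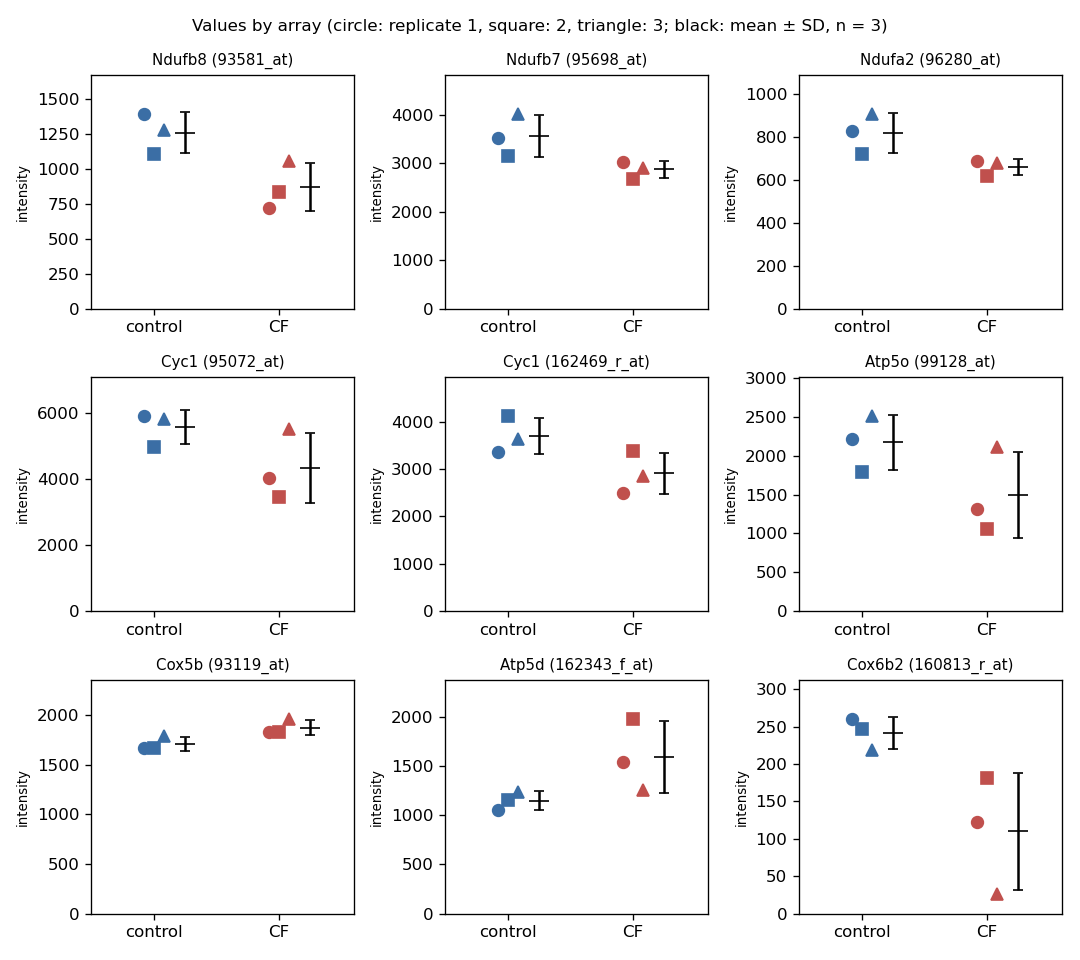
Intensity (y axis, linear) in the 3 control and 3 CF arrays for 9 respiratory chain probe sets, with replicate numbers as symbols and the mean ± SD in black. The groups are apart for Ndufb8, Ndufb7, Ndufa2, Cox5b, Atp5d and Cox6b2, and overlap for both Cyc1 probe sets and Atp5o, where CF replicate 3 at 2116 lies among the controls.

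Atp5d, subunit delta at the foot of the central shaft, was measured by 5 tested probe sets that did not go the same way. The brightest read 1055, 1151 and 1241 in controls and 1545, 1982.5 and 1256 in CF, with every CF value higher (0.45 ± 0.20, adjusted p = 0.677). The other 4 differed by 0.47 ± 0.38, 0.44 ± 0.36, -0.17 ± 0.19 and -1.04 ± 0.62, and all 4 overlapped between the groups. The brightest carries a suffix for shared probes, as do those at 0.47 and -0.17. Those at 0.44 and -1.04 carry none. The most negative rested on control replicate 2 at 1535, beside 532 and 242 in the other controls; without that array it was -0.34. In all, 12 member genes had at least 2 tested probe sets, and in 7 of them the probe sets differed in sign. Besides Atp5d, examples were Ndufv2 (0.22 and -0.17), Ndufb2 (-0.26 and 0.044), Ndufa3 (-0.34 and 0.13) and Atp5g1 (-0.045 and 0.61). Cyc1 was the gene whose probe sets were most alike, and the 3 of Cox6c were all below 0, at -0.079, -0.60 and -0.85, the dimmer ones farther. Of the 83 tested member probe sets, 54 had names without a suffix for shared or incomplete probes; their median difference was -0.051, with 30 lower.

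**Figure D3:**
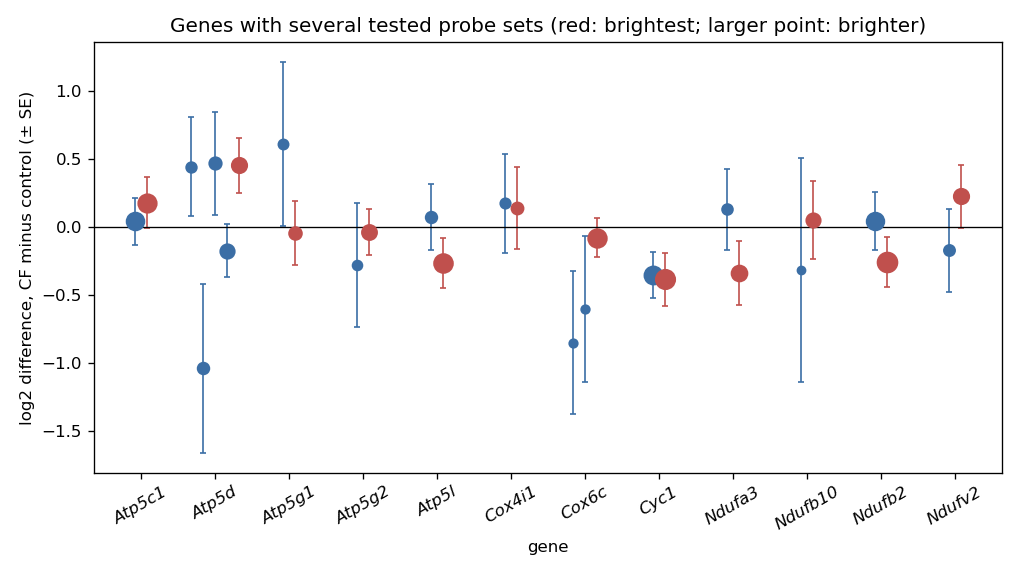
Log2 difference, CF minus control, with its SE (y axis), for every tested probe set of the 12 respiratory chain genes that have at least 2 (x axis). The brightest probe set of each gene is red and larger points are brighter; the probe sets of Atp5d run from -1.04 to 0.47, while those of Cyc1 coincide at -0.35 and -0.38.

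Besides Cycs, 3 members are not subunits of a complex, and none of them passed the threshold. The complex I assembly factors Ndufaf1 and Ndufaf4 differed by 0.40 ± 0.35 and -0.13 ± 0.34, and Cox7a2l, which helps to join complexes III and IV into supercomplexes, by 0.034 ± 0.17. Cox7a2l read 1775 to 2264 in controls and 1811 to 2265 in CF.

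The median level of the members varied between arrays of the same group by more than it did between the groups. The median deviation of the 67 genes from their own mean was 0.057, -0.026 and 0.11 in control replicates 1 to 3 and -0.12, -0.045 and 0.10 in CF replicates 1 to 3, while that of all tested genes stayed between 0.0080 and 0.035. In CF replicate 1, 77.6% of the member genes were below their mean, and in CF replicate 3, 26.9%. Complex III spread furthest, with medians of 0.14, 0.023 and 0.21 in controls and of -0.21, -0.17 and 0.16 in CF. CF replicates 1 and 2 were thus below all controls for complex III, and CF replicate 3 was among them. Complex V ran from -0.19 in CF replicate 1 to 0.15 in CF replicate 3, with the 3 controls between. The white fat sums given above were highest in control replicates 1 and 3 and low in CF replicate 3. The Gapdh ratio was highest in control replicate 2, and the Actb ratio in control replicate 2 and CF replicate 2. The part of the fat sums or of either ratio in these shifts was not tested.

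**Figure D4:**
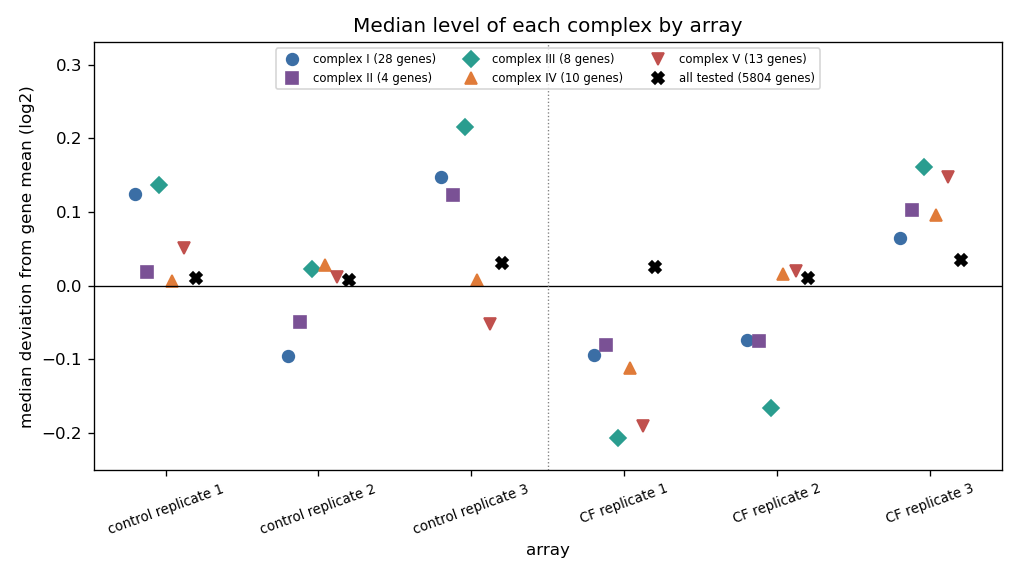
Median deviation of the tested genes of each complex from their mean over the 6 arrays (y axis, log2), by array (x axis), with all tested genes as crosses. CF replicate 1 has all 5 complexes below 0, and CF replicate 3 has all 5 above it.

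Arrays carrying the same replicate number share a title suffix, and their values deviated together over all tested probe sets, so the groups were also compared within the 3 pairs. Over the member probe sets alone, deviations from the group means correlated at 0.090 in pair 1, 0.435 in pair 2 and 0.471 in pair 3, and at -0.45 to 0.138 between arrays of other numbers, so that pair 1 did not stand out. The median log2 difference of the 67 member genes was -0.16 in pair 1, -0.039 in pair 2 and 0.021 in pair 3, with 50, 37 and 31 genes lower in CF. Of the members, 16 (23.9%) were lower in CF in all 3 pairs and 6 (9.0%) higher in all 3, beside 17.8% and 17.4% of all tested genes. With the replicate as a block in limma, 7 of the 83 probe sets (8.4%) were lower in CF at an unadjusted p under 0.05, against 5.67% of all, and 1 (1.2%) was higher, against 6.06% of all. The 7 were those of Ndufb8, Ndufb7, Cox6b2 and Atp5o, both of Cyc1, and that of Atp5d at -1.04, and the higher one was the brightest of Atp5d. Of these, Cox6b2 passed the limit for testing through its control arrays. With the block, 0 members passed the adjusted threshold, where 0.129% of all probe sets did; the lowest adjusted p was that of Atp5o, at 0.299.

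Genes that serve the chain without being its subunits were read from 10 further lists, and 0 of their members passed the adjusted threshold. Among the lists closest to the chain, assembly factors had 7 of 16 tested genes lower (median 0.069), carriers and enzymes beside the chain 8 of 14 (-0.065), the citrate cycle 8 of 12 (-0.063), coenzyme Q and haem synthesis 5 of 11 (0.042) and iron-sulfur cluster assembly 3 of 7 (0.022). In the lists that build and maintain the organelle, fewer genes were lower than higher. Of 57 tested mitochondrial ribosomal protein genes, which make the machinery that translates mitochondrial DNA's transcripts, 18 were lower and 39 higher in CF (median 0.11). Their median deviation from the gene mean was 0.05, -0.035 and -0.06 in control replicates 1 to 3. In CF replicates 1 to 3 it was -0.005, 0.027 and 0.204, so CF replicate 3 stood out and CF replicate 1 was below control replicate 1. Import genes had 7 of 18 lower (0.13), genes that keep and express the mitochondrial genome 3 of 9 (0.18), regulators of mitochondrial transcription 3 of 9 (0.11) and fission, fusion and clearance genes 2 of 9 (0.076). The medians of the subunits and of the ribosomal proteins lay on opposite sides of that of all tested genes, and the difference between the lists was not tested.

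Genes named below are among the 3 of smallest p in their list. Over all 5804 tested genes, the groups were apart with CF lower for 341 and higher for 426. Lower then higher, they were apart for 0 and 2 of 16 assembly factors. The carriers and enzymes had 1 and 1 of 14, and the citrate cycle 1 and 0 of 12. Coenzyme Q and haem synthesis had 1 and 1 of 11, and import 0 and 1 of 18. Genome upkeep had 1 and 0 of 9, and the regulators and the fission list 0 and 1 of 9 each. In these lists Uqcc3 and Mrps11 differed by more than any subunit, and both passed the limit for testing through their CF arrays alone, so that a difference was built in. Uqcc3, an assembly factor of complex III, read 29.6, 30.1 and 42.8 in controls and 166, 149.8 and 221 in CF (1.89 ± 0.55, adjusted p = 0.437); its control values lie under the floor of 47.6, so the size depends on the floor. Mrps11, a mitochondrial ribosomal protein, read 95.3, 97.0 and 29.9 in controls and 225, 182 and 165 in CF (1.32 ± 0.51, adjusted p = 0.642). Surf1, an assembly factor of complex IV, read 753, 649.8 and 774 in controls and 895, 1016 and 961 in CF (0.40 ± 0.18, adjusted p = 0.677), with every CF value higher. Tmem70, needed to assemble ATP synthase, read 555, 467 and 688 in controls and 121, 399 and 583 in CF (-0.89 ± 0.52), with overlap. Etfdh, which feeds electrons from fatty acid oxidation into the quinone pool, read 476, 349 and 458 in controls and 663, 669.5 and 691 in CF (0.67 ± 0.22, adjusted p = 0.519). The CF values of Etfdh were close together and all above the highest control.

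The proton-driven transhydrogenase gene Nnt differed by -0.60 ± 0.24 with overlapping groups, and Vdac3, a pore of the outer membrane, by -0.47 ± 0.23 with every CF value lower. In the citrate cycle, Idh3a, a subunit of the NAD-dependent isocitrate dehydrogenase, read 742, 1122 and 462 in controls and 408, 243 and 430.3 in CF (-1.06 ± 0.37, adjusted p = 0.554), again with every CF value lower. Ogdh, of the oxoglutarate dehydrogenase complex, differed by -0.40 ± 0.21 and Fh1, fumarase, by 0.27 ± 0.23, both with overlap. Of the import genes, the inner membrane channel gene Timm23 read 2397, 2025 and 2243 in controls and 3285, 2719 and 2678 in CF (0.38 ± 0.16, adjusted p = 0.669), with every CF value higher. The chaperone gene Hspd1 differed by 0.40 ± 0.19 and Timm17b by 0.37 ± 0.22, with overlap. Esrra, one of the estrogen-related receptors whose motif was searched for above, read 869.9, 932 and 897 in controls and 1106.5, 1226 and 1006 in CF (0.30 ± 0.17, adjusted p = 0.748), and Bnip3, a receptor for clearance of mitochondria, 293, 324 and 347 against 548, 659.8 and 376.5 (0.68 ± 0.27, adjusted p = 0.655). Among the ribosomal proteins, Mrpl40 differed by -0.74 ± 0.28 and Mrpl20 by 0.47 ± 0.23, each with the groups apart. Of the 57 ribosomal protein genes, 2 were apart with CF lower and 2 with CF higher. The groups were also apart for Coq9, of coenzyme Q synthesis, at 0.33 ± 0.20, and for Polg2, the accessory subunit of the mitochondrial DNA polymerase, at -0.46 ± 0.26. They overlapped for Hspa9 (0.19 ± 0.19) and Iscu (-0.23 ± 0.29), the chaperone and the scaffold of iron-sulfur cluster assembly.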

How the data were processed

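Deposited values were intensities, linear, for each probe set on each array; the software and scaling behind them: not given in the sources used here. Trimmed means were 500.27 to 500.3 on all 6 arrays, so the scaling was kept. Groups came from the genotypes in the descriptions and replicate numbers from the title suffixes. Symbols of the platform annotation were updated by gene identifier to RefSeq GRCm38.p6 (10839 of 12488 matched; 10855 had 1 symbol, 396 several, 1237 none). Genes outside the single-symbol table are not analysed here.

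A floor at the pooled 20th percentile (47.6) was applied before log2. After leaving out 66 control probe sets, those above the pooled 40th percentile (140.2) on at least 3 arrays were tested in limma 3.58.1 (R 4.3.3; lmFit, eBayes with trend), with Benjamini-Hochberg adjustment over all 7739. SEs, 95% intervals and adjusted p are from limma. The fit was also run on simulated data drawn without pairing of arrays. The planted differences there were larger than those of most members, so that run does not bear on differences of the members' size. Same-suffix arrays deviated together (r of 0.231 to 0.264; others -0.179 to -0.048), which was read as pairing; the fit without a block is the main one. Alternatives covered the floor, filter, scaling, variance model, block and single arrays. Named genes were, per complex, up to 4 of smallest p, all with groups apart, tissue isoforms, genes with several probe sets, and up to 3 of smallest p per further list. The members and lists were chosen with earlier results of these data known.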

Additional observations from a re-analysis of the deposited data

How the results depend on the processing

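None of the 17 alternatives gave a call among the members, and the lowest adjusted p of any was 0.293. Over these, the members' median ran from -0.086 to -0.018. The 5 calls over all probe sets became 10 with the floor at the 40th percentile, 0 with no filter, 8 with median centring, 3 with no intensity trend, 12 with array weights, 10 with the replicate block, and 1 to 11 when 1 array was left out (1 without CF replicate 1 or CF replicate 2, 11 without control replicate 2). The complex II median was 0.12 with the filter at the 60th percentile, which dropped Sdha. Leaving out 1 array, medians ran from -0.15 to -0.019 (complex I), -0.13 to 0.019 (II), -0.23 to -0.094 (III), -0.083 to 0.017 (IV, lowest without CF replicate 3) and -0.14 to 0.034 (V).

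Of 821 comparisons of 49 named member probe sets, 783 kept their direction, and 33 probe sets never turned. With array weights, 8 turned: Ndufb10 to -0.11 and, in its dimmer probe set, 0.14, Atp5g2 to 0.021 and 0.015, Cox7a2l to -0.029, Cox8b to -0.0067, Atp5c1 (dimmer) to -0.0020 and Atp5g1 to 0.028. Leaving out 1 array turned these and 8 others: Ndufb10 ran from -0.23 to 0.28 and -1.08 to 0.36, Atp5g2 -0.091 to 0.050 and -0.56 to 0.20, Cox7a2l -0.069 to 0.14, Cox8b -0.11 to 0.19, Atp5c1 -0.033 to 0.19, Atp5g1 -0.17 to 0.11, Atp5d -0.0034 to 0.72, Sdhd -0.0018 to 0.24, Ndufb2 -0.12 to 0.21, Atp5l -0.061 to 0.19, Cox4i1 -0.063 to 0.44 and -0.082 to 0.41, Ndufa3 -0.061 to 0.29 and Cox7a2 -0.098 to 0.092. The cause was not tested. With 3 arrays per group, 9 of the 67 genes had intervals reaching past a 2-fold change.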
